A study of Mus musculus with 24 samples.

Results

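Mitosis and G2/M genes are 50 genes whose products drive the passage of a cell from G2 through mitosis, and they were followed here in mouse lymphoid progenitors with and without phospholipase C gamma 1 (PLCγ1, Plcg1) and PLCγ2 (Plcg2). The members were taken by their symbols from a list drawn up with earlier results of these data known, though its rule used no measured value, and all 50 were found among the 24421 genes counted in every library. RNA had been sequenced from sorted B220+IgM-IL-7R+ cells, called B cell progenitors, and Lin-IL-7R+ cells, called common lymphoid progenitors (CLPs), of 12 mice, 3 of each of 4 genotypes, and the 24 libraries held 3 replicates per group. Both libraries of a replicate, 1 per population, share an identifier in their titles, which is taken here to be that of the mouse. Plcg1+/+Plcg2+/+ mice were the controls, either Plcg1-/-Plcg2+/+ or Plcg1+/+Plcg2-/- mice lacked a single isoform, and Plcg1-/-Plcg2-/- mice lacked both. The Plcg1 allele was floxed and was removed by an MxCre transgene, whose interferon-responsive promoter is switched on by poly(I:C) in haematopoietic and other cells, and Plcg2 was missing from the germ line. The donors of every genotype carried MxCre with a YFP reporter and received poly(I:C), had a mixed 129 and C57BL/6 background, and were of either sex. Their bone marrow was transplanted into lethally irradiated wild-type CD45.1+ recipients, from which the CD45.2+ donor cells were sorted. How many donors each genotype had was not stated, so n counts recipients. Within a population, p-values measure the spread between recipients. The main fit between populations has no term for the mouse, so its p-values treat both libraries of a mouse as independent.

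At the end of G2, cyclin B bound to Cdk1 is switched on, chromosomes condense, kinetochores capture the spindle, and the spindle checkpoint holds the anaphase-promoting complex until every chromosome is attached. Most of these genes are transcribed in a wave in late S and G2 and are shut off in G1, so their level in a population reflects, among other things, how many of its cells are near mitosis. Early lymphoid progenitors are among the cycling cells of the marrow, and IL-7 and the pre-B cell receptor are known to drive their proliferation. In bulk RNA, fewer dividing cells and less RNA per cell cannot be told apart.

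The wave is known to depend on 2 promoter elements, the cell cycle genes homology region (CHR), read by the MuvB complexes with the core TTTGAA, and CCAAT boxes, read by NF-Y. RefSeq promoter windows on GRCm38.p6, from 250 bases before to 50 bases after the start, were found for 43 of the 50 members. Windows were not found for Ccna2, Dlgap5, Aurkb, Kif20a, Cdc25c, Tpx2 and Smc4. The first window listed for each gene was used. Searched on both strands, TTTGAA was in 31 of the 43 windows (72.1%) and in 18.1% of the windows of all 27025 genes, and CCAAT was in 34 (79.1%) and in 37.9% of all. Those 27025 genes are all genes with a window, not limited to genes expressed here or matched to the members. Both words were in 27 member windows (62.8%) and in 7.12% of all windows, and CCAAT at 2 or more places in 25 (58.1%) and in 12.2%. TTTGAA lay within 50 bases of the start in 27 members (62.8%), against 4.92% of all genes. Neither word was in the windows of Mad2l1, Nuf2, Birc5, Nusap1 and Tacc3. The 200 bases before the RefSeq start are shown for 7 members, on the coding strand, which reads as the RNA does, 5′ to 3′. The Cdk1, Cdc20, Kif11 and Top2a stretches carry both words, Ccnb1 and Hjurp carry CCAAT alone in these 200 bases, and Nusap1 carries neither. Capitals mark TTTGAA or its reverse complement TTCAAA and CCAAT or its reverse complement ATTGG. Other annotations can place the start elsewhere, and a match is a description of letters, not a test of binding.
Ccnb1, chr13:100786487-100786686, minus strand: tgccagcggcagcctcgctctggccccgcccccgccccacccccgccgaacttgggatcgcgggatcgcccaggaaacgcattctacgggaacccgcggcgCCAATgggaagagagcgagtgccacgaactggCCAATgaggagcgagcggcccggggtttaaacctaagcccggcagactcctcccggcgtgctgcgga
Cdk1, chr10:69352913-69353112, minus strand: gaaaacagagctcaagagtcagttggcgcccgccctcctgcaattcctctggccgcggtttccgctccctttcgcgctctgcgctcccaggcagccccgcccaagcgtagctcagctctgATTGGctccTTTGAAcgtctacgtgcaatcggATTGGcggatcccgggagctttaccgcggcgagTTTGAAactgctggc
Cdc20, chr4:118437344-118437543, minus strand: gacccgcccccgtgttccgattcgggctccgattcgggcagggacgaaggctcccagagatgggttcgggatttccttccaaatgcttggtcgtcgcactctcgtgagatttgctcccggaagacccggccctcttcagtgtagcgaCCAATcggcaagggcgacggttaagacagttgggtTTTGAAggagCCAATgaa
Kif11, chr19:37376182-37376381, plus strand: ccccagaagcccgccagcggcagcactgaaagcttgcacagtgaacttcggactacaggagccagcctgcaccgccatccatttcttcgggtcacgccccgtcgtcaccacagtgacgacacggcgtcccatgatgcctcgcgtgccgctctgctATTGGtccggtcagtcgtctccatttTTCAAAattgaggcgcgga
Top2a, chr11:99024190-99024389, minus strand: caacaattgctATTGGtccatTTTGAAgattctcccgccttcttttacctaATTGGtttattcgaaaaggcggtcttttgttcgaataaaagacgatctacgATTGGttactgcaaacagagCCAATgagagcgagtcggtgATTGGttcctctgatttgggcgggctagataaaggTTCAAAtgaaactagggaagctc
Hjurp, chr1:88277580-88277779, minus strand: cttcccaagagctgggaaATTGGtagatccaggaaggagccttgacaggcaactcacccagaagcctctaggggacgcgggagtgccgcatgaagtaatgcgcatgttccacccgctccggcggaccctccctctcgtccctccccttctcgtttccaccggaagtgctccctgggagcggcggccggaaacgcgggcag
Nusap1, chr2:119618098-119618297, plus strand: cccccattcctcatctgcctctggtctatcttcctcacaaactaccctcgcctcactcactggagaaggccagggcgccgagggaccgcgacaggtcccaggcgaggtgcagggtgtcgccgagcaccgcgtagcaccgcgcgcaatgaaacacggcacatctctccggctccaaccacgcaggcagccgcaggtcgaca

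**Figure D1:**
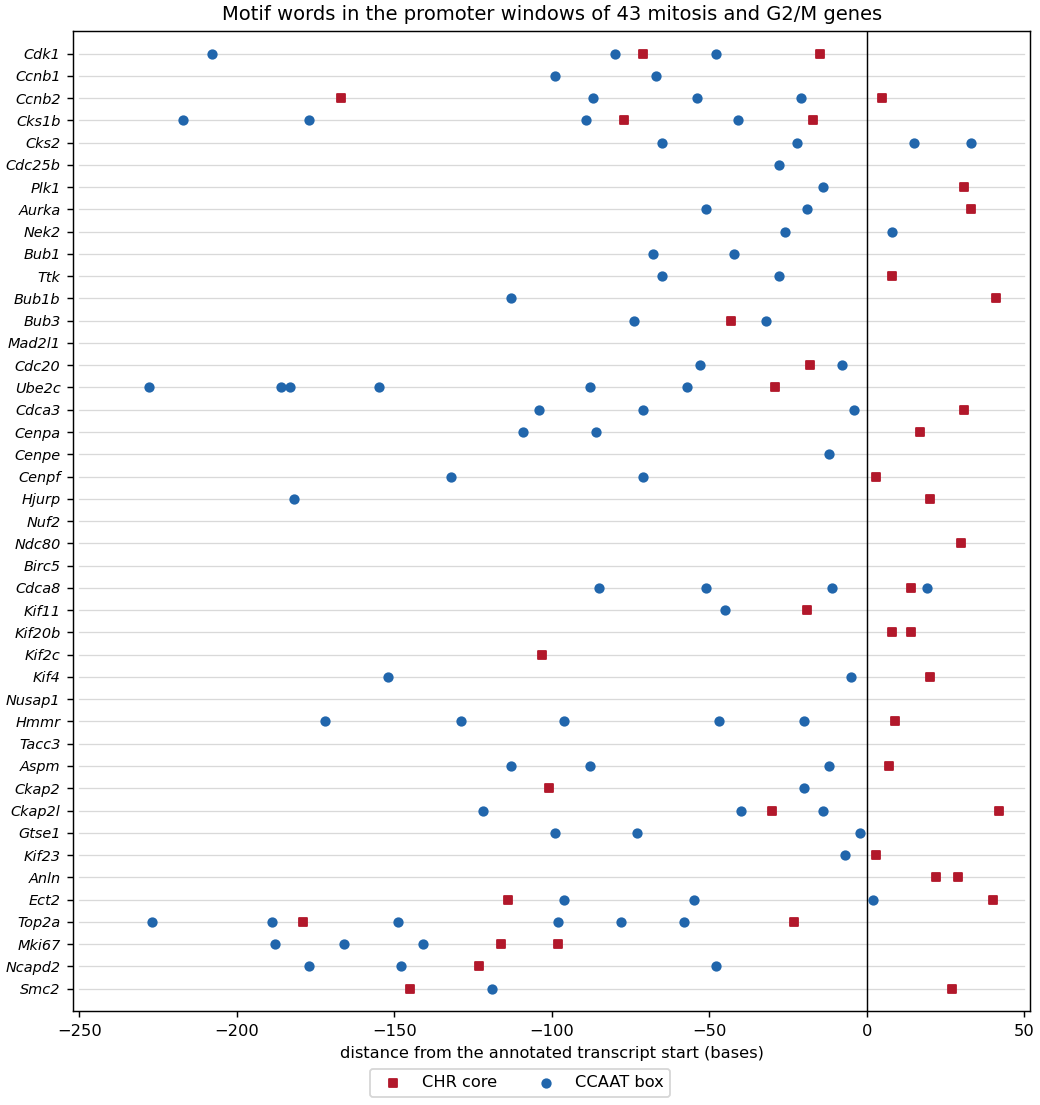
Positions of the CHR core and of CCAAT boxes, on either strand, in the windows of 43 mitosis and G2/M genes, plotted as the distance in bases of the match's left end from the RefSeq transcript start. Squares crowd around the start in 27 genes and circles lie mostly before it, and 5 rows are empty.

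Reads on genes ranged from 4232345 to 33219995 in CLP libraries and from 1479582 to 25057223 in B cell progenitor libraries, and 3 reads, the floor used here, were reached by every member in every library. The reads that fell on no gene moved with the population, at 17.9% to 45.2% of reads in CLPs and 59.9% to 87.3% in B cell progenitors. Reads counted as ambiguous, which are kept apart from the gene counts, also did, at 1.06% to 1.44% in CLPs and 0.110% to 0.420% in B cell progenitors. The part of either kind of read in any difference between the populations was not tested. Plcg2 lay between 72.1 and 138 CPM (counts per library size in megareads, corrected by edgeR's TMM factor) in the libraries labelled Plcg2-/- and between 183 and 282 CPM in the others, whereas Plcg1 counts, taken over the whole gene, did not separate the labels. Libraries labelled Plcg1-/- had 1294 to 2314 CPM of Xist and 1.44 to 19.1 CPM of the Y-linked Ddx3y, and the others 23.6 to 743 and 98.2 to 191 CPM, so Plcg1 genotype and sex-linked transcripts cannot be told apart. The number 1 libraries of the 3 knockout genotypes stood apart in both populations. Their 8 granulocyte and monocyte markers summed to 8371 to 10887 CPM, against 1647 to 7226 CPM in the other 18 libraries, their 7 macrophage markers to 251 to 311 CPM, against 58.7 to 208 CPM, and their CLP and B cell progenitor libraries resembled each other (Pearson r 0.94 to 0.97, median 0.95, over 9779 genes, against 0.83 to 0.97, median 0.91, for the other CLP with the other B cell progenitor libraries). Il7r, which encodes the IL-7 receptor chain used in both sorts, lay at 134 to 159 CPM in these knockout libraries. In the other 18 libraries it lay at 182 to 506 CPM. The CLP label was not clear from its markers: Flt3, a receptor of early lymphoid progenitors, exceeded every B cell progenitor library in 5 of 12 CLP libraries. The CLP label is therefore used for the sort and not as a statement on the cells, and results are also given without the 6 libraries that stood apart.

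The 50 genes were well expressed in both populations. Their reads made up 0.747% to 1.5% of the reads on genes in CLP libraries and 0.952% to 1.79% in B cell progenitor libraries. Exon length was taken from the joined exons of all GENCODE transcripts of a gene, whereas the paper names RefSeq for its alignment. Levels per kilobase, and the exon overlaps between genes given below, depend on this choice. Per kilobase of exon, the highest mean levels in B cell progenitors were those of Smc4, a condensin subunit, at 191 CPM per kb, Top2a, which untangles sister DNA, at 177 CPM per kb, and cyclin B2 (Ccnb2) at 167 CPM per kb. In CLPs the order was led by Mki67, the proliferation antigen Ki-67 that coats mitotic chromosomes, at 131 CPM per kb, Top2a at 128 CPM per kb and Ccnb2 at 127 CPM per kb. The ranges over the libraries of these 4 genes overlapped within each population, from 86.6 CPM per kb for Mki67 to 262 CPM per kb for Smc4 in B cell progenitors, so that their order is not resolved. The lowest were Cdc25c, a phosphatase that activates Cdk1, at 6.33 CPM per kb in B cell progenitors and 4.86 CPM per kb in CLPs, and Hjurp, the chaperone that loads the centromeric histone CENP-A, at 9.83 and 3.90 CPM per kb. For comparison, 1113 olfactory receptor genes, which these cells should not use, had at most 0.466 CPM per kb in a B cell progenitor library and 0.113 CPM per kb in a CLP library.

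The members varied together across libraries. The correlation of each gene's log2 CPM with the mean of the other 49 had a median of 0.94 over the 24 libraries and was above 0.8 for 48 genes, a description of libraries that share mice and depth. The exceptions were Cks2, a small Cdk1-binding protein, at 0.33, and Hjurp at 0.76. Within CLPs the median was 0.94 and within B cell progenitors 0.96. Outside the cell cycle lists, the 5 genes most like the members' mean over the 24 libraries were Anp32e (r 0.97), Lmnb1 (0.97), Tfg (0.97), Ezh2 (0.97) and Atl2 (0.97), of which Lmnb1 encodes lamin B1 and Ezh2 the catalytic subunit of Polycomb repressive complex 2.

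The mean log2 CPM of the 50 genes lay at 6.70, 7.80 and 7.54 in the Plcg1+/+Plcg2+/+ CLP libraries of mice 1, 2 and 3, and at 7.76, 7.94 and 7.95 in their B cell progenitor libraries. In Plcg1-/-Plcg2+/+ mice it was 7.10, 6.90 and 7.30 in CLPs and 7.08, 7.70 and 7.52 in B cell progenitors. In Plcg1+/+Plcg2-/- mice it was 7.02, 6.95 and 7.17 in CLPs and 7.11, 7.98 and 7.78 in B cell progenitors, and in Plcg1-/-Plcg2-/- mice 6.99, 7.16 and 7.28 in CLPs and 7.05, 7.70 and 7.34 in B cell progenitors. The mean was higher in B cell progenitors in 11 of 12 mice. The difference within a mouse was largest in mouse 1 of Plcg1+/+Plcg2+/+, at 1.05, and it was −0.01, 0.09 and 0.05 in the 3 knockout mice whose libraries stood apart. The median difference over all genes was 0.10 in mouse 1 of Plcg1+/+Plcg2+/+. Over the 12 mice that median ranged from −0.07 in mouse 1 of Plcg1-/-Plcg2-/- to 0.26 in mouse 2 of Plcg1-/-Plcg2+/+. Among CLPs, the Plcg1+/+Plcg2+/+ libraries held both the lowest and the highest value. Among B cell progenitors, all 3 Plcg1-/-Plcg2-/- and all 3 Plcg1-/-Plcg2+/+ libraries lay below all 3 Plcg1+/+Plcg2+/+ libraries, whereas those of Plcg1+/+Plcg2-/- overlapped them.

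**Figure D2:**
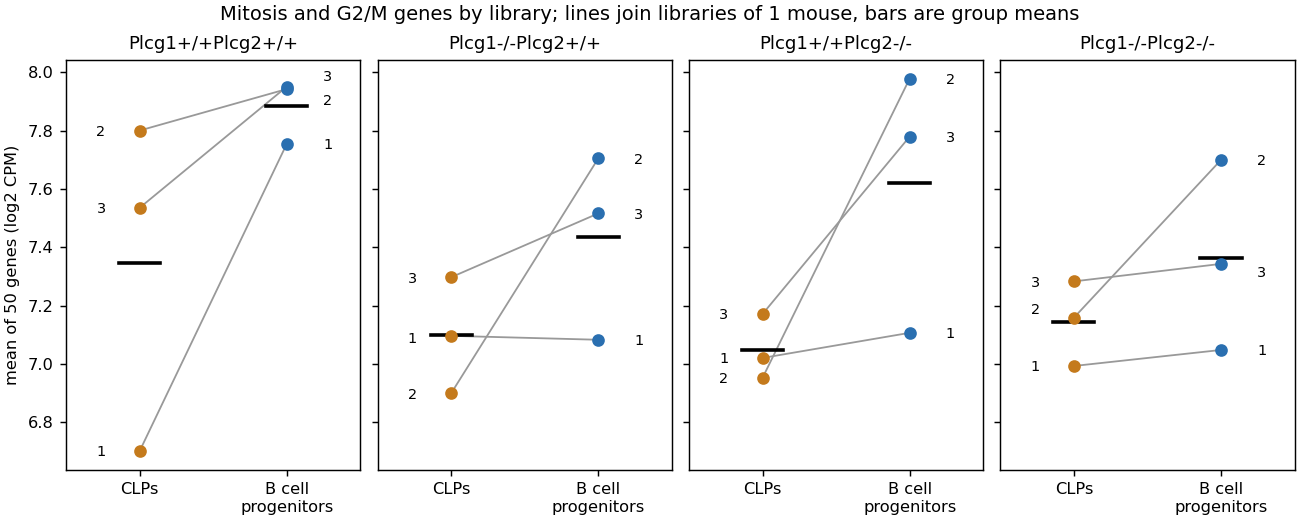
Mean log2 CPM of the 50 mitosis and G2/M genes in each of 24 libraries, in 1 panel per genotype. Points are libraries labelled by mouse number, grey lines join the CLP and B cell progenitor library of a mouse, and black bars are group means of 3 libraries. The 3 lines of the number 1 knockout mice are nearly flat, and CLP library 1 of Plcg1+/+Plcg2+/+ is the lowest of all.

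B cell progenitors had higher levels of this gene set than CLPs. As a mean over the 4 genotypes, 16 of the 50 genes were called higher in B cell progenitors and 0 lower, by an adjusted p of at most 0.05 and a log2 fold change of at least 0.5 in size by the edgeR quasi-likelihood F-test, adjusted after Benjamini-Hochberg over all 17212 genes tested. Of all those genes, 8.41% were called higher and 5.98% lower. The members' median log2 fold change was 0.39 (range −0.22 to 1.34), beside 0.08 over all genes, and 49 of 50 were positive. An unadjusted p of at most 0.05 with a higher level in B cell progenitors was reached by 37 members, beside 22.9% of all genes. Within mice, 16 members were higher in B cell progenitors in 12 of 12 mice, beside 7.49% of all genes, and 29 in at least 10 of 12, beside 18.1%. The fit with the mouse as a block also called 16, all of them shared. Without the 6 libraries that stood apart 24 members were called higher, the 16 among them, beside 8.92% of all genes in that fit, with a median of 0.50, an alternative chosen after seeing the data. With any 1 of the 24 libraries left out, between 13 and 20 members were called and the median lay between 0.34 and 0.44. With no filter on low counts 10 members were called, and by adjusted p alone 32.

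**Figure D3:**
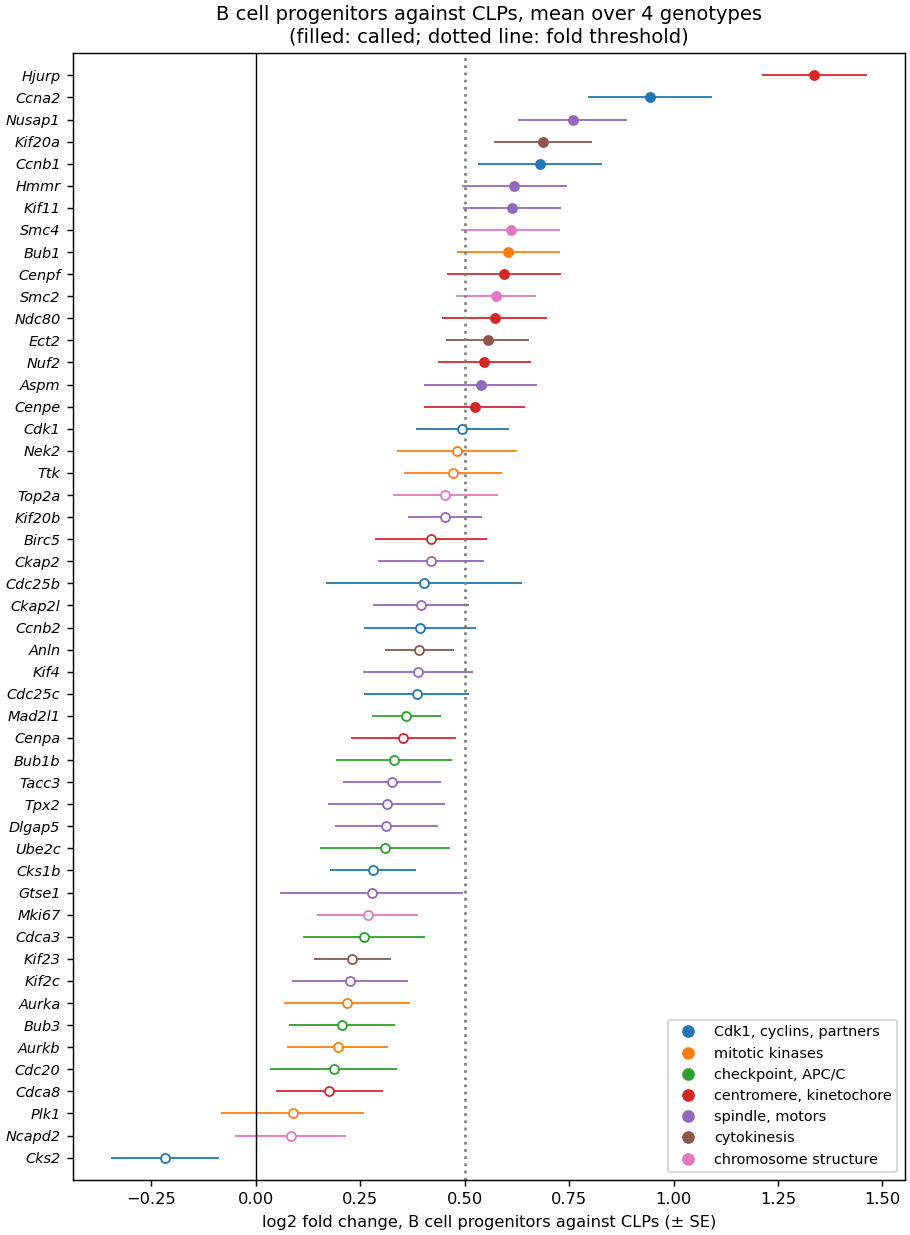
Log2 fold change of each of the 50 genes in B cell progenitors against CLPs as a mean over 4 genotypes, with its standard error, coloured by role and ordered by size. Filled circles are the 16 called genes, from Cenpe at 0.52 to Hjurp at 1.34, the dotted line is the fold threshold of 0.5, and Cks2 is the single gene below 0.

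Hjurp stood out by size. It was at 23.2, 40.7 and 37.6 CPM in the 3 Plcg1+/+Plcg2+/+ CLP libraries, 26.4, 37.6 and 36.2 CPM in Plcg1-/-Plcg2+/+, 28.0, 31.1 and 31.1 CPM in Plcg1+/+Plcg2-/- and 28.9, 34.4 and 35.0 CPM in Plcg1-/-Plcg2-/- CLPs. In B cell progenitors it was at 70.9, 106 and 96.9 CPM, 56.8, 83.9 and 89.4 CPM, 57.4, 95.0 and 80.1 CPM and 59.0, 110.2 and 76.8 CPM in the same order of genotypes. Every B cell progenitor library lay above every CLP library, which held for 1 of the 50 members and for 2.56% of all genes tested, and the within-mouse difference ranged from 1.02 to 1.68 on the log2 scale. That range includes the 3 knockout mice whose libraries stood apart, in which the mean of the 50 genes differed by −0.01, 0.09 and 0.05. In these mice Hjurp did not follow that mean. The log2 fold change of Hjurp over the genotypes was 1.34 (SE 0.13, adjusted p = 7.77e-08 in that edgeR fit). It was called in each genotype, with log2 fold changes of 1.44, 1.20, 1.38 and 1.33, and its adjusted p from the same test was 0.00103, 0.00635, 0.002 and 0.00207 in the order above. These calls held without any 1 library, and were lost in every genotype when all libraries were thinned to 1479582 reads. Hjurp lies on chromosome 1 of mm10 from 88262471 to 88277633 and its joined GENCODE exons cover 8331 bases. The highest CLP library was at 40.7 CPM and the lowest B cell progenitor library at 56.8 CPM.

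Among Cdk1, its cyclins and partners (8 genes), 2 were called higher, cyclin A2 (Ccna2), which partners Cdk2 and Cdk1 from S phase to mitotic entry, and cyclin B1 (Ccnb1), the activator of Cdk1. Ccna2 was at 179, 479 and 347 CPM in Plcg1+/+Plcg2+/+ CLPs and at 622, 713 and 659 CPM in B cell progenitors of the same mice, which did not overlap, and its log2 fold change over the genotypes was 0.94 (SE 0.15, adjusted p = 7.94e-05, edgeR). Of the exon bases of Ccna2, 12.5% are shared with Exosc9 on the other strand, and the library kit did not mark strand. Ccnb1 was at 49.6, 144 and 115 CPM and 147, 155 and 172 CPM in those libraries, again without overlap though by a small gap, with a log2 fold change of 0.68. Cdk1 itself, at 107, 199 and 176 CPM and 199.9, 253 and 229 CPM, had a log2 fold change of 0.49, just under the fold threshold, with an adjusted p of 0.00255 from the same edgeR test, and was higher in 12 of 12 mice. Cks2 went the other way: it was higher in B cell progenitors in 2 of 12 mice and its log2 fold change was −0.22 (SE 0.13, adjusted p = 0.212 from edgeR). Its relative Cks1b was at 103, 165 and 157 CPM in CLPs and 164, 187 and 168 CPM in B cell progenitors of Plcg1+/+Plcg2+/+ mice, with a log2 fold change of 0.28.

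Centromere and kinetochore genes held the largest share of calls, 5 of 8. Besides Hjurp these were Nuf2 (log2 fold change 0.55) and Ndc80 (0.57), which form the microtubule-binding Ndc80 complex, and the kinetochore proteins Cenpf (0.59) and Cenpe (0.52), a motor. Cenpf was at 153, 328 and 266 CPM in Plcg1+/+Plcg2+/+ CLPs and 414, 392 and 456 CPM in B cell progenitors, which did not overlap. Birc5, which encodes survivin, was at 86.0, 208 and 178 and 167, 225 and 198 CPM in those libraries, which overlapped, and its log2 fold change over the genotypes was 0.42. Of the 6 mitotic kinases 1 was called, Bub1, a checkpoint kinase of the kinetochore, with a log2 fold change of 0.60; it was at 76.1, 169 and 136 CPM and 199, 215 and 225 CPM in Plcg1+/+Plcg2+/+ CLPs and B cell progenitors. Aurkb, the kinase of the chromosomal passenger complex, was at 107, 259 and 182 and 186, 231 and 229 CPM and had a log2 fold change of 0.20, and Plk1, the Polo kinase of mitotic entry, was at 73.2, 236 and 160.3 and 143, 175 and 180.1 CPM and had 0.09 (SE 0.17). The CLP values of both overlapped those of B cell progenitors, CLP library 2 being the highest of the 6.

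Among 13 spindle proteins and motors 4 were called, Nusap1 and Hmmr, which bind spindle microtubules, Kif11, the kinesin that pushes the poles apart, and Aspm, a pole protein. Kif11 was at 237, 464 and 361 CPM in Plcg1+/+Plcg2+/+ CLPs and at 571, 584 and 595 CPM in B cell progenitors, so that the narrow B cell progenitor values lay above the wide CLP values, and its log2 fold change over the genotypes was 0.61. Nusap1 had 0.76, Hmmr 0.62 and Aspm 0.54 (SE 0.13). With 1 library left out, Aspm, Cenpe, Nuf2 and Ect2 fell to as low as 0.457, 0.458, 0.486 and 0.497, under the fold threshold. Of 4 cytokinesis genes, Kif20a (0.69) and Ect2 (0.55), which steers the cleavage furrow, were called. Kif20a shares 29.3% of its exon bases with Cdc23 on the other strand, itself called higher by 0.84. The share of ambiguous reads differed between the populations, and its part in the values of Kif20a, Cdc23 and Ccna2 was not tested. Of 5 genes of chromosome structure, the condensin ATPases Smc2 (0.57) and Smc4 (0.61) were called. Top2a was at 908, 1787 and 1416 CPM in Plcg1+/+Plcg2+/+ CLPs and 1988, 1945 and 2051 CPM in B cell progenitors, which did not overlap, with a log2 fold change of 0.45 over the genotypes. Mki67 was at 976, 1839 and 1580.1 and 2192, 1884 and 2147 CPM, also without overlap, and had 0.27. The condensin subunit Ncapd2 had 0.08 (SE 0.13). None of the 6 checkpoint and anaphase-promoting complex genes was called (0.19 for Cdc20 to 0.36 for Mad2l1), and 2 of them passed by unadjusted p.

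The population difference was not called for most members within a single genotype, where 6 libraries carry it. In Plcg1+/+Plcg2+/+ mice 1 member, Hjurp, was called higher, beside 3.14% of all genes, with a members' median of 0.48. The fit with the mouse as a block called 4, Hjurp, Kif20b, Ect2 and Ccna2. Leaving out CLP library 2, the highest CLP library of the 50 genes, gave 10 calls and a median of 0.68, and the median was 0.25 without CLP library 1, the lowest. The groups did not overlap for 24 members, each higher in B cell progenitors, beside 12.5% of all genes. In Plcg1-/-Plcg2+/+ mice Hjurp was the 1 call (3.04% of all genes called higher, median 0.34, or 0.21 without B cell progenitor library 2 and 0.53 without library 1), and 8 members were higher without overlap, beside 14.8% of all genes, and 1, Cks2, lower, beside 8.73%. Without B cell progenitor library 1 of that genotype 2 were called. In Plcg1+/+Plcg2-/- mice Hjurp, Ccna2, Hmmr and Kif11 were called (2.75% of all genes, median 0.60, or 0.40 without B cell progenitor library 2), and 14 did not overlap, beside 11.1%. The calls of Ccna2, Hmmr and Kif11 there were lost without any 1 of 5 of the 6 libraries, and without B cell progenitor library 1, the 1 left, 11 members were called. In Plcg1-/-Plcg2-/- mice Hjurp was called (2.95% of all genes, median 0.24) and 16 members did not overlap, beside 11.9%. That median was 0.085 without B cell progenitor library 2 and 0.37 without library 1. These 4 contrasts use different mice, and of their differences from each other only that between Plcg1-/-Plcg2-/- and Plcg1+/+Plcg2+/+ was tested.

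The other cell cycle genes gave the setting. Of 31 further kinetochore and checkpoint genes 12 were called higher in B cell progenitors as a mean over the genotypes, with a median log2 fold change of 0.42, led by Cenpu (1.11), Cenpk (0.97) and Cenpp (0.75), all of the inner kinetochore. Of 14 further condensin and cohesin genes 3 were called, Ncapg (0.95), Esco2 (0.76) and Stag2 (0.52), and of 24 further spindle and cytokinesis genes 4, led by Kif18a (0.76), Depdc1a (0.74) and Shcbp1 (0.73). Of 26 other G2/M regulators that were tested 2 were called, Pbk (0.66) and Sgol1 (0.58). Of 34 DNA replication genes 1, Rfc4 (0.60), was called, and their median was 0.09. Of 14 subunits of the anaphase-promoting complex 2 were called, Cdc23 and Anapc10 (0.57), and of 12 genes of quiescence and Cdk inhibition 2, Ccng2 (0.57) and Rb1 (0.53). Of the marker lists, 0 of 10 B lineage genes were called, 4 of 8 pre-B stage genes were called higher and 1 of 8 CLP genes lower. Beside these, the granulocyte and monocyte markers summed to 2701 to 10887 CPM in CLPs and 1647 to 9543 CPM in B cell progenitors, with 0 of 8 called.

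**Figure D4:**
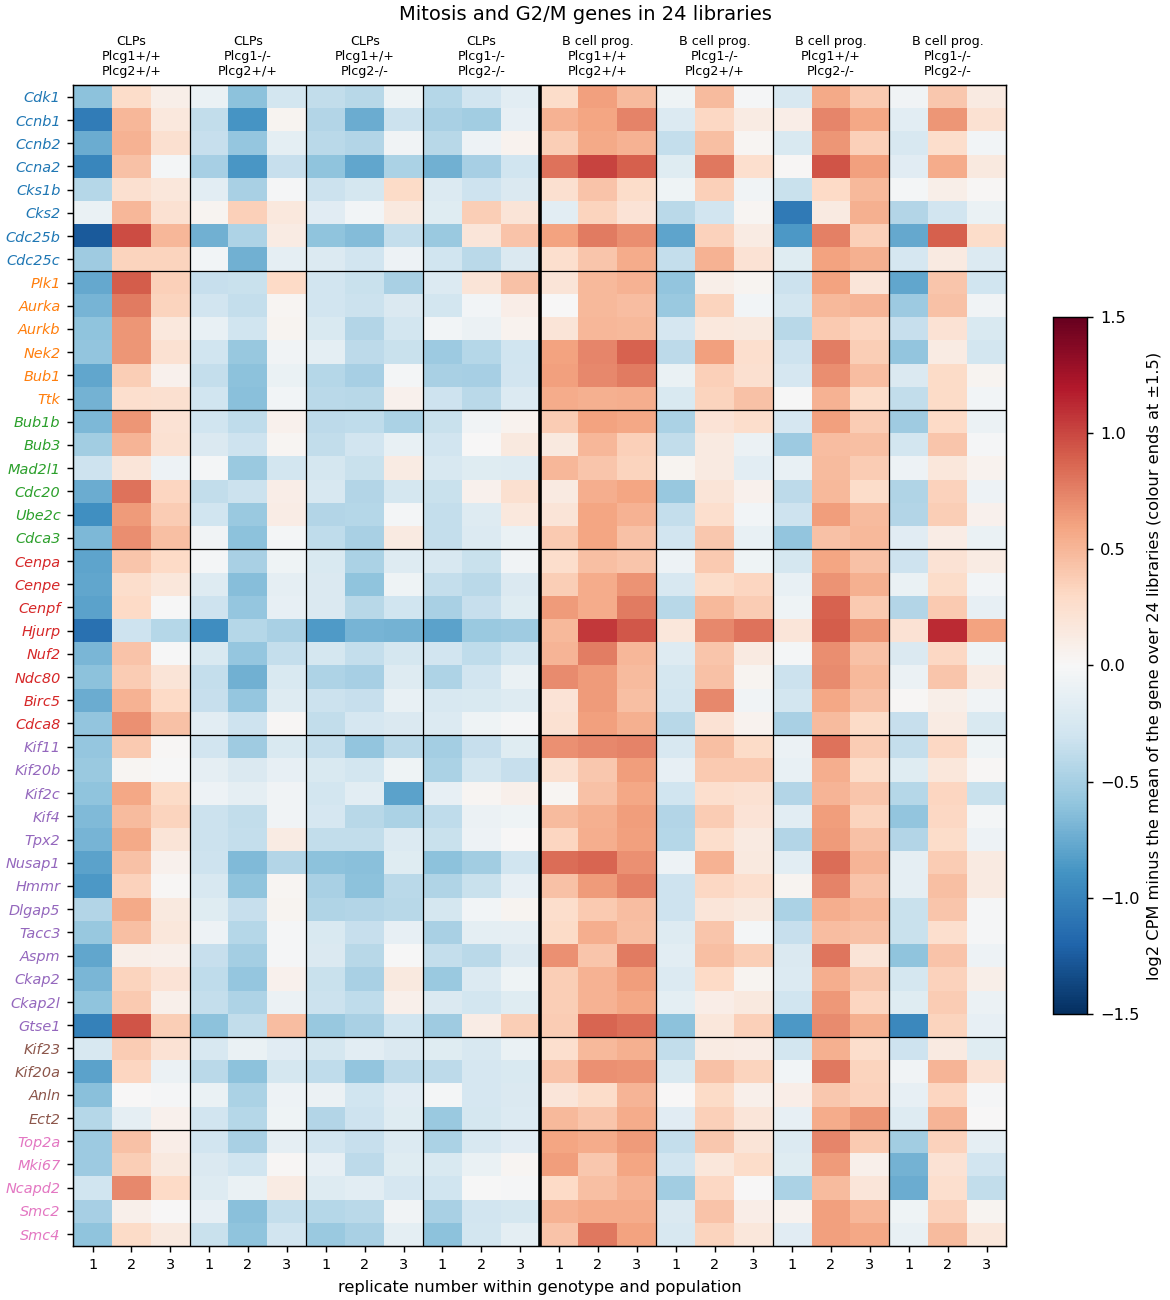
Log2 CPM of the 50 genes in the 24 libraries, each gene centred on its mean over all libraries, with rows in blocks by role (label colours as in the plot of population fold changes) and columns by population, genotype and replicate. Red is above and blue below the mean, and colours end at 1.5. Columns change as a whole: the 3 Plcg1+/+Plcg2+/+ B cell progenitor columns are red, the number 1 libraries of the knockout genotypes are pale or blue in both populations, and Hjurp alone is blue in all 12 CLP columns and red in all 12 B cell progenitor columns.

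Loss of both PLCγ isoforms was compared with Plcg1+/+Plcg2+/+ within each population. In B cell progenitors all 50 members had a negative log2 fold change in Plcg1-/-Plcg2-/- (median −0.46, range −0.96 to −0.15), beside 51.8% of all genes and a median of −0.02 over all 15001 genes tested. None was called, beside 0.893% of all genes, and the smallest adjusted p was 0.193 (edgeR, adjusted over all genes tested). An unadjusted p of at most 0.05 was reached by 22 members, all lower, beside 6.56% of all genes lower at that p. For 30 members all 3 Plcg1-/-Plcg2-/- libraries lay below all 3 Plcg1+/+Plcg2+/+ libraries, beside 10.2% of all genes. DESeq2 on the same libraries called 1 member, Nek2. In simulated libraries of this depth and spread, drawn over genes of all levels, 2-fold changes were recovered for 29% of changed genes and 4-fold changes for 57%. Without the libraries that stood apart 1 member, Nek2, was called, the median was −0.37 and 49 of 50 members were negative.

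Nek2, a centrosome kinase, had the largest difference. It was at 166, 181 and 202 CPM in Plcg1+/+Plcg2+/+ and 72.1, 119 and 89.8 CPM in Plcg1-/-Plcg2-/- B cell progenitors, which did not overlap, a log2 fold change of −0.96 (SE 0.29, adjusted p = 0.193, edgeR). It was the 1 member called with the 2 groups fitted alone, at −0.97, and without the libraries that stood apart, at −0.83 (adjusted p = 0.0497). Mki67 was at 2192, 1884 and 2147 CPM and 871, 1650.4 and 1170.0 CPM, again without overlap, a log2 fold change of −0.76 (SE 0.26, adjusted p = 0.251). Kif11 was at 571, 584 and 595 CPM and 276, 439 and 339 CPM, −0.73 (SE 0.24, adjusted p = 0.239), and Gtse1, a microtubule-associated protein of G2, at 99.3, 139.5 and 135 CPM and 38.7, 95.8 and 69.9 CPM, −0.86 (SE 0.39). In each of these genes library 2 was the highest of the Plcg1-/-Plcg2-/- libraries and library 1 the lowest, and the adjusted p values are from the same edgeR fit.

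The kinases and chromosome genes followed. Bub1 was at 199, 215 and 225 CPM in Plcg1+/+Plcg2+/+ and 112, 159 and 134 CPM in Plcg1-/-Plcg2-/- B cell progenitors, a log2 fold change of −0.66. Aurkb was at 186, 231 and 229 and 128, 189 and 139 CPM, −0.50, and Plk1 at 143, 175 and 180.1 and 73.1, 167 and 102 CPM, −0.53, and for both the highest Plcg1-/-Plcg2-/- library lay within the Plcg1+/+Plcg2+/+ values. Top2a was at 1988, 1945 and 2051 and 920.4, 1676 and 1206 CPM without overlap, −0.66. Among cyclins, Ccna2 was at 622, 713 and 659 and 314, 520.0 and 392 CPM without overlap, −0.71, whereas Ccnb1, at 147, 155 and 172 and 91.8, 162 and 119.9 CPM, and Cdk1, at 199.9, 253 and 229 and 159, 219 and 181 CPM, overlapped, with −0.34 and −0.29. Cenpf was at 414, 392 and 456 and 196, 350.0 and 245 CPM, −0.67, and Birc5 at 167, 225 and 198 and 146, 153 and 139.6 CPM, −0.43, both without overlap. Cks1b, at 164, 187 and 168 and 136, 148 and 140.4 CPM, did not overlap either, by a smaller step of −0.29. The smallest differences were those of Hjurp (−0.15), the cytokinesis scaffold anillin (Anln, −0.26) and the checkpoint protein Bub3 (−0.27). By role, the median was −0.66 for chromosome structure, −0.55 for mitotic kinases, −0.47 for spindle genes, −0.46 for centromere and kinetochore, −0.43 for checkpoint, −0.41 for Cdk1 and cyclins and −0.35 for cytokinesis.

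The single-deficient genotypes are compared with the same 3 Plcg1+/+Plcg2+/+ libraries, so their values are given side by side and not as separate evidence. In Plcg1-/-Plcg2+/+ B cell progenitors all 50 members were negative (median −0.43, beside 0.06 over all genes), beside 44.7% of all genes, 0 were called (0.06% of all genes), 5 were lower at an unadjusted p under the 0.05 limit, beside 2.65% of all genes, and 30 did not overlap, all lower, beside 11.2% of all genes. In Plcg1+/+Plcg2-/- all 50 were negative, beside 46.3% of all genes, with a median of −0.19 (0.03 over all genes), 0 were called (0.0467% of all genes), 0 passed by unadjusted p, beside 2.84%, and 1, the checkpoint kinase Ttk, did not overlap, beside 4.73%. DESeq2 called 0 members in either. Mki67 was at 1163, 1598 and 1725 CPM in Plcg1-/-Plcg2+/+ and 1251, 2209.9 and 1501 CPM in Plcg1+/+Plcg2-/- B cell progenitors, Ccna2 at 312, 612 and 421 CPM and 358, 679 and 542 CPM, and Kif11 at 299, 484 and 434 CPM and 335, 624 and 462 CPM. In each, library 1 was the lowest of its group, library 2 of Plcg1+/+Plcg2-/- lay within or above the Plcg1+/+Plcg2+/+ values and library 3 below them. Without the libraries that stood apart the median of Plcg1+/+Plcg2-/- was −0.025, with 31 of 50 negative, and that of Plcg1-/-Plcg2+/+ −0.34, with 50 of 50. Compared directly, Plcg1-/-Plcg2-/- differed from Plcg1-/-Plcg2+/+ by a median of −0.09 (34 of 50 negative) and from Plcg1+/+Plcg2-/- by −0.30 (48 of 50 negative), with 0 members called in either, beside 0.213% and 0.153% of all genes, and 0 by unadjusted p, beside 16.6% and 11%. The second of these medians was −0.49 without library 1 and −0.12 without library 2 of Plcg1+/+Plcg2-/-. The largest of these differences was again Nek2, at −0.45 and −0.58. Set against the added effects of both single losses, the double loss departed at 0 members by the call (0.0267% of all genes) and at 0 by unadjusted p, beside 15.3%.

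**Figure D5:**
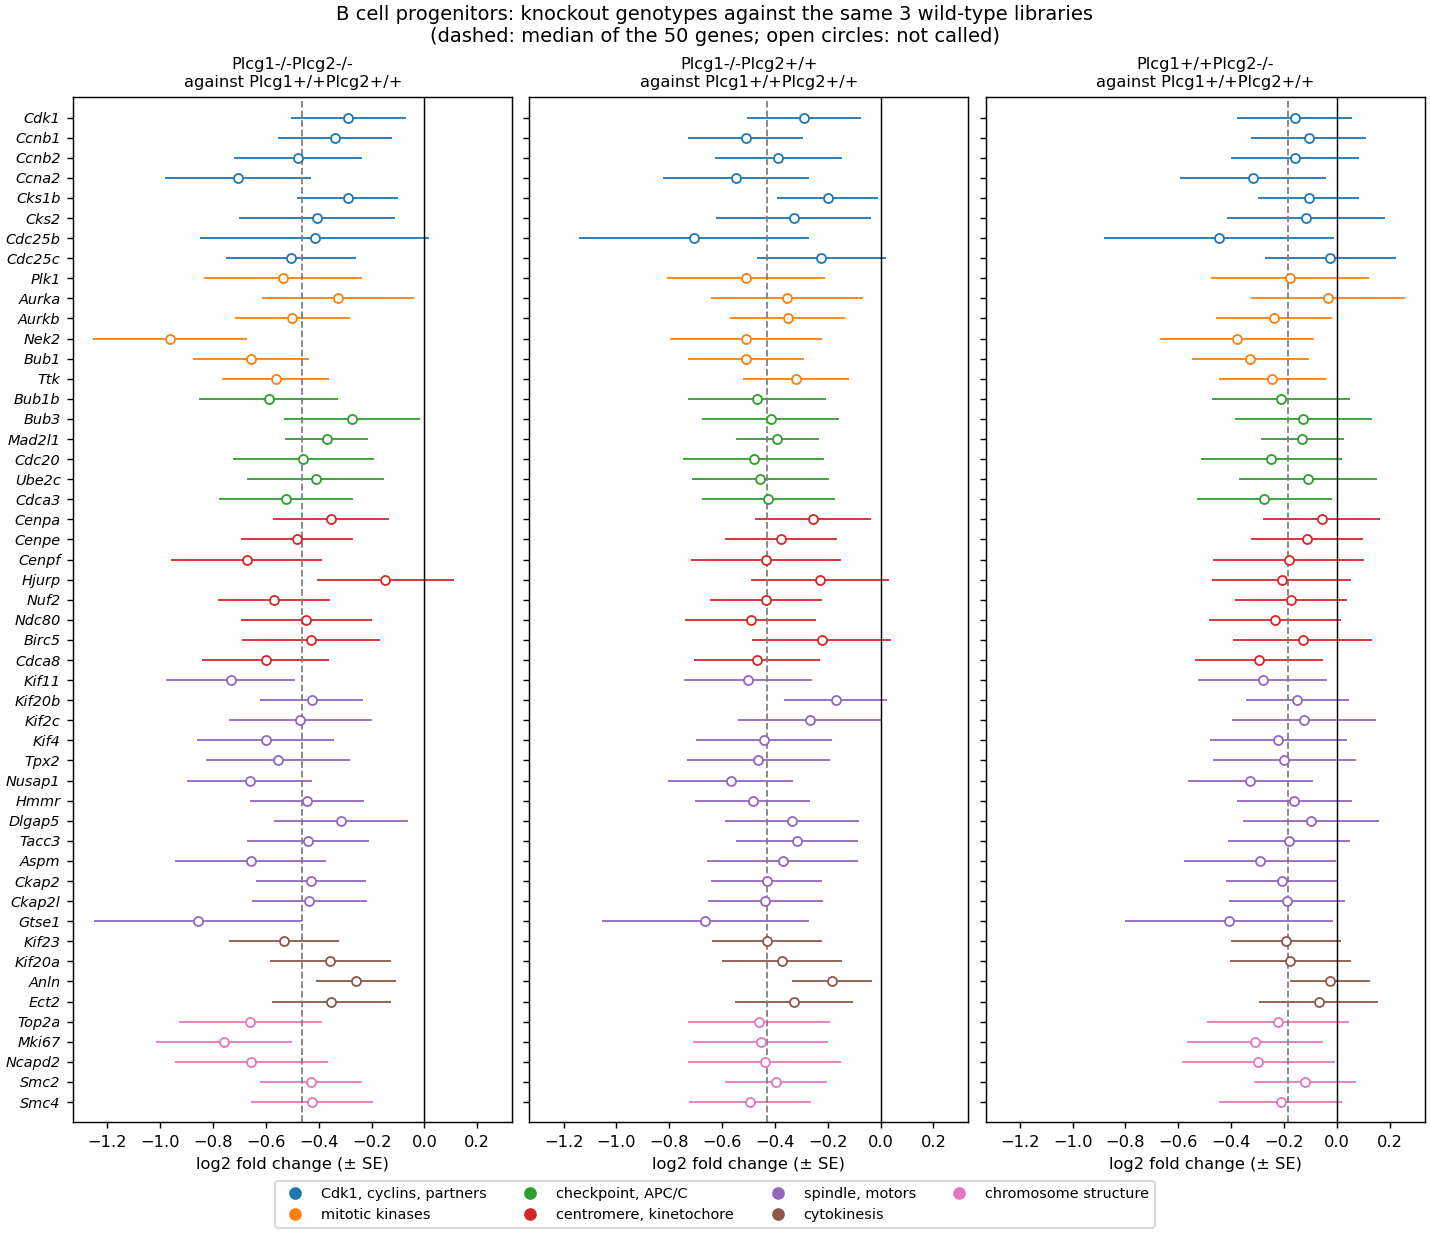
Log2 fold change, with its standard error, of each of the 50 genes in B cell progenitors of 3 knockout genotypes against the same 3 Plcg1+/+Plcg2+/+ libraries, in blocks coloured by role. Dashed lines are the medians of −0.46, −0.43 and −0.19, all circles are open because no gene was called, and every point lies left of 0.

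Other measures moved with these B cell progenitor differences. The number 1 libraries, lowest of each knockout group, were those rich in granulocyte and monocyte markers; over the groups these 8 markers summed to 1698 to 5255 CPM in Plcg1+/+Plcg2+/+, 2699 to 9543 CPM in Plcg1-/-Plcg2+/+, 1647 to 9235 CPM in Plcg1+/+Plcg2-/- and 3158 to 8371 CPM in Plcg1-/-Plcg2-/-, with 0 of 8 called, 8 of 8 positive in Plcg1-/-Plcg2-/- against Plcg1+/+Plcg2+/+ (median 1.04) and 0 of them at 0 in every library. The 7 macrophage markers summed to 58.7 to 159 CPM in Plcg1+/+Plcg2+/+ and 109 to 255 CPM in Plcg1-/-Plcg2-/-, with 0 of 7 called. Of the 8 pre-B stage genes 5 were called lower in Plcg1-/-Plcg2-/-, with a median of −1.91. DNA replication genes were also lower, in 32 of 34 (median −0.40, 0 called), as were 31 of 31 further kinetochore and checkpoint genes (median −0.36, 0 called) and 21 of 24 further spindle and cytokinesis genes (median −0.55, 0 called), while the 14 anaphase-promoting complex subunits had a median of −0.09. Of the 12 genes of quiescence and Cdk inhibition 11 were lower too, with 0 called. The part of these shifts in the members' difference was not tested.

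In CLPs each knockout genotype overlapped Plcg1+/+Plcg2+/+ at all 50 members. In Plcg1-/-Plcg2-/- against Plcg1+/+Plcg2+/+ CLPs 49 of 50 members were negative, beside 54.4% of all genes (median −0.28, range −0.61 for Nek2 to 0.02 for Anln, beside −0.03 over all 15209 genes), 0 were called, beside 0.0921% of all genes, 2 were lower by unadjusted p, beside 3.84%, and DESeq2 called 0. For 0 members did the groups separate, beside 6.27% of all genes higher and 7.32% lower. Mki67 was at 976, 1839 and 1580.1 CPM in Plcg1+/+Plcg2+/+ and 1209, 1328 and 1452 CPM in Plcg1-/-Plcg2-/- CLPs, Top2a at 908, 1787 and 1416 and 949, 1119 and 1170.3 CPM, and Cdk1 at 107, 199 and 176 and 123, 136 and 148 CPM. Each time the 3 Plcg1-/-Plcg2-/- values lay between the lowest and the highest Plcg1+/+Plcg2+/+ value. The median rested on those 2 control libraries: it was −0.54 without CLP library 1 and −0.045 without CLP library 2 of Plcg1+/+Plcg2+/+. Library 1 was the CLP library with the highest Flt3, at 735 CPM, and library 2 the one with the lowest, at 25.8 CPM.

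In Plcg1-/-Plcg2+/+ CLPs the members' median was −0.30 with 0 called (0.00658% of all genes) and 0 by unadjusted p, beside 2.85%, and in Plcg1+/+Plcg2-/- CLPs it was −0.37 with 0 called (0% of all genes) and 3 lower by unadjusted p, beside 2.39%. These medians rested on the same control libraries: they were −0.55 and −0.63 without CLP library 1 of Plcg1+/+Plcg2+/+, and −0.078 and −0.14 without its library 2. The largest difference in both was that of Cdc25b, the phosphatase that starts Cdk1 activation, at −0.65 and −0.87. Against the single-deficient CLPs the Plcg1-/-Plcg2-/- median was 0.023 and 0.082, with 0 called (0.0263% and 0.0526% of all genes) and 0 by unadjusted p, beside 4.29% and 7.54%. The effect of losing both isoforms in B cell progenitors minus that in CLPs had a median of −0.22 over the members, with 49 of 50 negative, beside 51.3% of all genes, 0 called (0% of all genes) and 0 by unadjusted p, beside 1.37%. The largest such differences were those of Mki67 (−0.61), Gtse1 (−0.59) and Aspm (−0.48). Without CLP library 1 of Plcg1+/+Plcg2+/+ the median turned to 0.021, so that a difference between the populations in this effect was not shown.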

How the data were processed

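RNA-seq was analysed from 24 libraries, 12 of CLPs and 12 of B cell progenitors. The authors made poly(A) libraries (NEBNext Ultra, which does not mark strand), and per the submitters' processing notes reads were aligned to mm10 with STAR 2.5.0a; the counting program is not given in the sources used here. The deposited values are raw read counts per gene, with separate rows for reads outside genes (17.9% to 87.3% of reads) and ambiguous reads (0.110% to 1.44%), which were left out of library sizes.

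Counts were fitted with edgeR 4.0.16 in R 4.3.3 (filterByExpr, TMM, quasi-likelihood test) over all genes, 1 fit of 8 groups for the populations and 1 fit of 4 groups within each population, and genes were called where the p adjusted after Benjamini-Hochberg did not exceed 0.05 and the log2 fold change reached 0.5 in size. Members, gene lists and the rule for named genes were chosen with earlier results of these data known. That rule took 12 core members, called members, the 3 largest and 3 smallest fold changes, and the called genes of other lists with the largest changes. CPM used TMM-scaled library sizes, and log2 CPM a prior count of 2. Alternatives were DESeq2 1.42.0, RLE factors, no filter, adjusted p alone, thinning, the compared groups alone, replicate blocks and left-out libraries. When libraries were left out, the genes tested were kept as in the full fit, because the filter otherwise admits more genes and shifts the scaling between populations. The 2 libraries that share a genotype and number also share an identifier in their titles, taken to be the mouse, which the labels do not spell out (their deviations from group means correlated by −0.35 to 0.53). Across genotypes every same-numbered pair correlated above 0.1 only in Plcg1-/-Plcg2-/- against Plcg1-/-Plcg2+/+ CLPs and against Plcg1+/+Plcg2-/- in both populations, where the block changed no call. Tested on simulated data for the mean population difference, the fit recovered 57% of 2-fold and 75% of 4-fold changes. Intervals from counting were not used, since the spread between mice sets the error.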

Additional observations from a re-analysis of the deposited data

How the results depend on the processing

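The direction of the members' median was kept under every alternative for the 5 population contrasts and for each knockout genotype against Plcg1+/+Plcg2+/+ within a population. Counts of called members moved more. For the mean population difference (16 called) adjusted p alone gave 32 and no filter 10, and leaving out 1 library gave 13 to 20. Within Plcg1+/+Plcg2+/+ (1 called) thinning gave 0, DESeq2 7, the block by mouse 4 and the fit without the number 1 knockout libraries 4, with 1 to 10 when 1 library was left out. Within Plcg1-/-Plcg2+/+ (1) thinning gave 0 and DESeq2 2, with 1 to 2. Within Plcg1+/+Plcg2-/- (4) thinning, no filter and the groups alone each gave 1 and DESeq2 10, with 1 to 11. Within Plcg1-/-Plcg2-/- (1) thinning gave 0.

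For Plcg1-/-Plcg2-/- against Plcg1+/+Plcg2+/+ B cell progenitors (0 called) DESeq2, the groups alone and the fit without the number 1 knockout libraries each gave 1. The replicate block gave 14 there. No link other than the number is known for same-numbered samples of these groups. Their deviations correlated by −0.093 to 0.22, which cannot settle whether they share a batch. Apart from this contrast and the block by mouse in Plcg1+/+Plcg2+/+, the block changed no count by more than 1.5 times. Leaving out 1 library moved that median between −0.62 and −0.34 with 0 called.

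Medians near 0 changed sign. In CLPs, Plcg1-/-Plcg2-/- against Plcg1-/-Plcg2+/+ was −0.023 after thinning and −0.064 to 0.13 with 1 library left out, and against Plcg1+/+Plcg2-/- −0.022 after thinning and −0.012 to 0.16. In B cell progenitors, Plcg1-/-Plcg2-/- against Plcg1-/-Plcg2+/+ ranged from −0.23 to 0.078, and the departure from the sum of single effects from −0.085 to 0.30 and was −0.056 without the number 1 knockout libraries. The effect in B cell progenitors minus that in CLPs ranged from −0.46 to 0.021. The causes were not tested. Depth limits the smallest library, at 1479582 reads.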
